A study of Heliconius melpomene cythera and Heliconius melpomene rosina with 32 samples.

Results

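The forewing and posterior hindwing of Heliconius melpomene were compared between the iridescent subspecies H. m. cythera and the matt black H. m. rosina at 70% of pupal development, in 4 cythera libraries (individuals 9 to 12) and 3 rosina libraries (individuals 14 to 16). These 7 libraries were chosen by their labels from the 32 of the series. The labels list 8 at this stage and wing region, and the one held back is individual 13, which is labelled rosina but lay with cythera, as described next. The other libraries came from the anterior hindwing of the same animals and from both wing regions of 8 animals at 50% development, with 2 females and 2 males of each subspecies. All butterflies came from captive populations kept at 25°C and fed Passiflora biflora. By their labels, cythera individuals 9 and 11 were males and 10 and 12 were females, and every rosina individual at 70% was male, so that subspecies and sex were partly confounded. Each library holds the RNA of a whole wing region, with scale cells, other epidermal cells, tracheae and blood cells together, so a change in the number of cells of a type cannot be told apart from a change of RNA per cell. No marker of a wing cell type could be looked up, because the row names of the count table are mostly identifiers without a gene name.

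A butterfly scale is the cuticle of a single cell that grows out of the pupal wing. Bundles of actin run along the growing scale and mark where the ridges of its upper surface will form, and chitin-based cuticle is then laid down over them. In iridescent Heliconius scales the ridges are built of stacked layers of cuticle that reflect blue light, whereas the matt black of rosina comes from melanin without such a reflector. Expression at a stage when cuticle is forming in the scales is therefore of interest for the colour difference, although the subspecies also differ at many other places in their genomes.

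Total counts of the 8 labelled libraries ran from 20151439 to 35703924, and 35.1% to 41.8% of them fell on the 10 genes with the highest counts. Levels are given as CPM, counts scaled to the library size after TMM normalization. A library in which a gene had no counts could still hold 3, which corresponds to 0.0976 to 0.147 CPM at these depths and covers counting error only. DE genes are those with an FDR under 0.05 in edgeR's quasi-likelihood test over all genes tested, where FDR is the Benjamini-Hochberg adjusted p. Log2 fold changes are positive where cythera was higher. The standard errors (SE) given with them are the size of the change divided by the square root of the test's F. Where a group had no counts, such an SE depends on the prior count that edgeR adds and does not measure the precision of the change. Nothing in the labels says how the animals were related, so the p-values measure only the spread among these animals.

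Individual 13 went against its label. Distances between libraries were taken as the root mean square log2 difference over the 500 genes that differed most in each pair, among 12138 genes. Between individual 13 and the 4 cythera libraries they were 4.06 to 4.26, within the range among the cythera libraries themselves (3.76 to 4.35). Between individual 13 and rosina 14 to 16 they were 4.61 to 4.74, within the range between the subspecies (4.48 to 4.87) and above that among the rosina libraries (4.04 to 4.27). Loci that were read in only 1 subspecies gave the same picture. There were 57 loci with at least 10 counts in each cythera library and at most 3 in each of rosina 14, 15 and 16, and 34 of these (59.6%) had at least 10 counts in individual 13. Of 65 loci read only in rosina by the mirrored definition, 1 (1.54%) was read in individual 13. When each other library was left out of the choice in turn and then looked up, cythera libraries held 55.9% to 73.1% of the loci read only in the other cythera libraries. Rosina libraries held 12.7% to 27.3% of the loci read only in cythera that were chosen without them. The loci differed with the library left out, with 57 for individual 13 and 78 to 102 for the others. The paper also removed 1 H. m. rosina individual as mislabelled, on its expression and its nucleotide variants, and its main text does not give the number of that animal. Individual 13 is therefore left out of the group values that follow, and is named by its label wherever it appears. With it kept in the rosina group, edgeR called 0 of 12138 genes (0%). MSTRG.9411, MSTRG.11598, MSTRG.15180 and MSTRG.22267, DE without it, failed the filter on low counts in that fit and were not tested. The smallest FDR was then 0.0862, with 884 genes at an unadjusted p under 0.05.

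**Figure D1:**
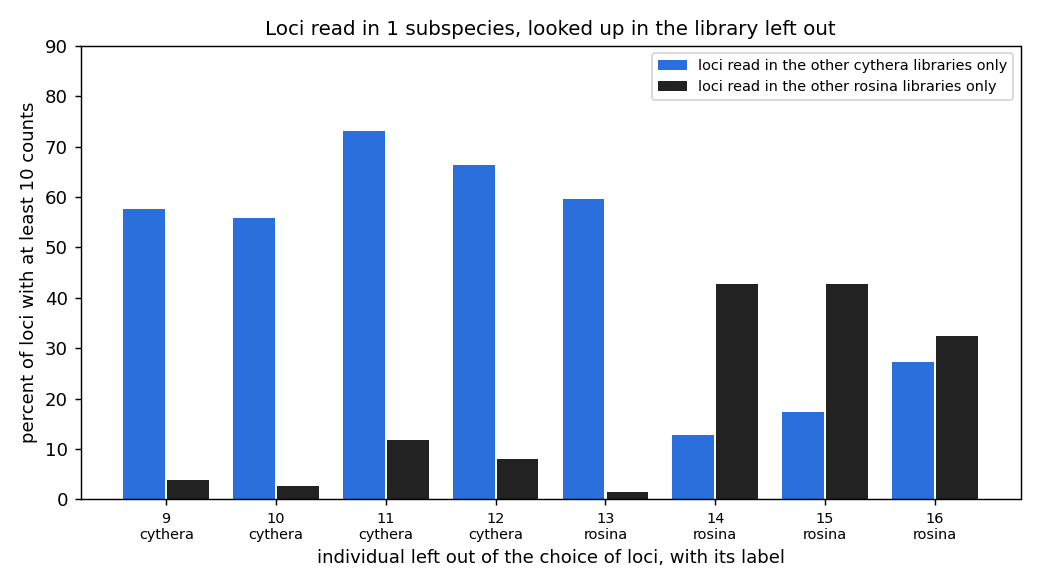
Percent of loci (vertical axis, percent with at least 10 counts) that were read only in the other cythera libraries (blue) or only in the other rosina libraries (black), looked up in the library left out of the choice (horizontal axis, individual and label). Individual 13, labelled rosina, held 59.6% of the first kind and 1.54% of the second, whereas rosina 14 to 16 held 12.7% to 27.3% and 32.5% to 42.8%.

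Between cythera and rosina without individual 13, 31 of 12907 genes (0.24%) were DE, 23 higher in cythera (0.178%) and 8 lower (0.062%). The changes were large for the most part, with fitted log2 fold changes of 1.04 to 14.23 in size. Where a group had no counts, as for the largest of these, the fitted value depends on the prior count that edgeR adds. Of the 31, 16 were loci read in only 1 of the subspecies (at least 10 counts in each of its libraries and at most 3 in each of the other). Of the other 15, 11 had at least 10 counts in every library of both subspecies and differed by 1.04 to 3.19 on the log2 scale. The last 4 had fewer than 10 counts in some libraries of the lower group and differed by 3.71 to 8.91. The groups did not overlap in any of the 31, against 1669 of the 12907 genes tested (12.9%). An unadjusted p under 0.05 was found for 1643 genes, of which 909 were higher in cythera and 734 lower, and the median log2 fold change over all genes was -0.0015. The larger number of higher calls was not stable, since the counts were 10 higher and 12 lower without rosina individual 15 and 9 higher and 16 lower without rosina individual 16. The total was 11 to 25 when any 1 individual was left out, and 799 by DESeq2, which called all 31 as well. Called in each of the 7 fits with an individual left out were MSTRG.9411, MSTRG.18837, MSTRG.335, MSTRG.11303, MSTRG.18840, MSTRG.1708, MSTRG.11598 and MSTRG.25, and 15 of the 31 were called in none of them.

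The mean level of the DE genes over the 7 libraries had a median of 3.96 CPM, against 7.02 CPM over all genes tested. Below 10 CPM were 20 of the 31 (64.5%), against 56.4% of all genes, and this difference was not tested. The mean takes in libraries with few or no counts, which lowers it for loci read only in cythera or only in rosina. Of the 31, 17 (54.8%) were assembled loci that carry no annotated gene ID, against 28.4% of the genes tested. Only MSTRG.7962 carried a gene name, HmelGSTo6. The highest mean level of a DE gene over the 7 libraries was 40.2 CPM. Within a subspecies, means reached 91.2 CPM (MSTRG.9411 in rosina) and 70.2 CPM (MSTRG.1708 in cythera).

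**Figure D2:**
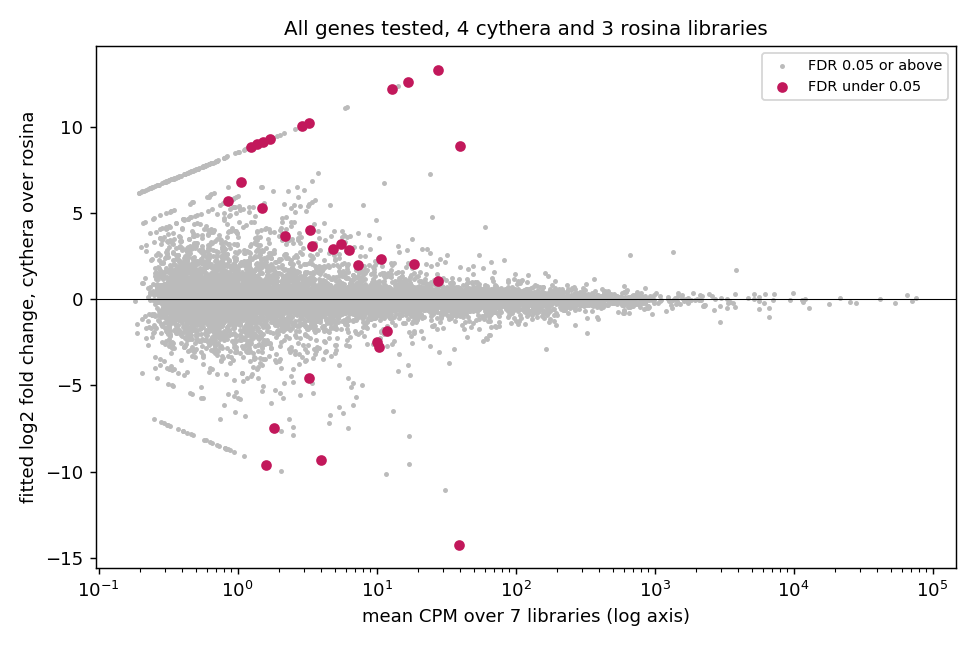
Fitted log2 fold change of cythera over rosina (vertical axis) against mean CPM over the 7 libraries (horizontal axis, log scale) for the 12907 genes tested, with the 31 DE genes in red. The 23 DE genes above 0 and the 8 below it lie at mean levels of 0.85 to 40.2 CPM, and the straight streaks at the edges are genes without counts in one subspecies.

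Among loci read only in rosina, the most abundant was MSTRG.9411 (annotated HMEL004480g1), which also had the smallest FDR of the comparison. It stood at 87.5, 85.8 and 100.3 CPM in rosina 14, 15 and 16 and had no counts in any cythera library or in individual 13. The mean in rosina was 91.2 ± 7.98 CPM (SD, n = 3), at least 759-fold higher than the cythera libraries allowed (FDR = 0.00282). MSTRG.11598, an assembled locus with no annotated ID, was at 9.51, 8.72 and 9.46 CPM in rosina and had 1 count in all 4 cythera libraries together. The ratio was 933, with a 95% counting interval of 167 to 36890 (FDR = 0.0029). The 3 rosina libraries were close to each other in both loci.

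Another pair of rosina loci was weaker. MSTRG.15180 (HMEL031891g1) was at 3.03, 4.78 and 3.32 CPM in rosina and without counts in cythera and individual 13, at least 30.9-fold higher (FDR = 0.0426). MSTRG.22267 was at 5.81, 3.68 and 3.18 CPM in rosina against 2 counts in the 4 cythera libraries, a ratio of 209 (95% counting interval 57.3 to 1728, FDR = 0.0404). All 4 of these rosina loci had no counts in individual 13.

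Among the 12 loci read only in cythera, MSTRG.25 (HMEL002147g1) was the most abundant. Its levels were 44.6, 41.4, 70.4 and 38.4 CPM in cythera individuals 9 to 12, with no counts in rosina 14 to 16 and 45.5 CPM in individual 13. The cythera mean of 48.7 ± 14.7 CPM (SD, n = 4) was at least 445-fold higher (FDR = 0.00309). Individual 13 was thus within the cythera range of this gene.

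The next most abundant were MSTRG.18840 and MSTRG.18837, assembled loci with no annotated ID and with nearly consecutive numbers. MSTRG.18840 was at 20.7, 29.7, 37.5 and 29.5 CPM in cythera and without counts in rosina, at least 268-fold higher (FDR = 0.0029). MSTRG.18837 was at 18.4, 21.4, 28.9 and 21.5 CPM in cythera and again without counts in rosina, at least 206-fold higher (FDR = 0.0029). Individual 13 had 20.04 and 14.2 CPM of them, so it was below the lowest cythera library in each. Whether the pair belongs to a single transcript could not be looked up from their numbers.

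The other 9 loci read only in cythera were weaker, with cythera means of 1.47 to 5.67 CPM and FDR values of 0.0398 to 0.0449. MSTRG.25598 (8.82, 2.90, 3.90 and 7.07 CPM) and MSTRG.10010 (8.71, 3.39, 2.46 and 5.73 CPM) varied alike over the cythera individuals and had no counts in rosina, at least 51.8-fold and 46.3-fold differences. Neither had a count in individual 13, and in this they differed from 9 of the 12 loci, which had at least 10 counts there. MSTRG.16497, at 1.55, 3.24, 2.83 and 2.99 CPM in cythera, was also almost unread in individual 13 (0.0752 CPM). MSTRG.21190 (HMEL034341g1) was at 3.45, 3.04, 3.93 and 1.46 CPM, at least 27.1-fold higher than in rosina. MSTRG.5657 (HMEL036810g1) was at 2.80, 1.13, 2.65 and 2.19 CPM, at least 20.02-fold higher. MSTRG.22230 (HMEL010931) was at 4.09, 1.37, 1.397 and 3.36 CPM against 0.0841, 0.0650 and 0.0349 CPM in rosina, with a log2 fold change of 5.29 (0.71). The cythera libraries were uneven in these weak loci. That each stayed above every rosina library follows from the definition of the loci.

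MSTRG.953, MSTRG.25236 and MSTRG.12648, without an annotated ID, complete the group. MSTRG.953 was at 1.58 to 3.45 CPM in cythera, without counts in rosina and at 4.96 CPM in individual 13. MSTRG.25236 was at 1.37 to 2.16 CPM in cythera against 1 count in rosina, a ratio of 157 (95% counting interval 27.8 to 6220). MSTRG.12648 was at 1.06 to 1.77 CPM against 2 counts in rosina, a ratio of 60.7 (16.5 to 506). For MSTRG.953 and MSTRG.25236 individual 13 lay above every cythera library.

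Of the 11 genes with at least 10 counts in every library, 8 were higher in cythera and 3 lower. Of the 4 genes with fewer counts in some libraries of the lower group, 3 were higher and 1 lower, and their largest difference was in MSTRG.1708, an assembled locus at 47.9, 68.8, 84.1 and 79.8 CPM in cythera and at 0.0841, 0.325 and 0 CPM in rosina, where the highest value was 10 counts. It was the most abundant of all DE genes in cythera, with a mean of 70.2 ± 16.2 CPM (SD, n = 4) and a log2 fold change of 8.91 (0.73, FDR = 0.00517), which became 10.65 without rosina 15, the library with those 10 counts. Individual 13 had 94.4 CPM, more than any cythera library.

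MSTRG.335 (HMEL038079g1) and MSTRG.336 (HMEL038080g1) have consecutive numbers and annotated IDs, and both were higher in cythera. MSTRG.335 was at 14.6, 20.6, 15.6 and 15.0 CPM in cythera against 3.03, 3.41 and 3.21 CPM in rosina, a log2 fold change of 2.36 (0.19, FDR = 0.00503). MSTRG.336 was at 5.68, 7.02, 5.07 and 4.19 CPM against 0.589, 0.846 and 0.524 CPM, a log2 fold change of 3.07 (0.34, FDR = 0.033). Individual 13 stood within the cythera values of each, at 16.5 and 4.85 CPM.

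HmelGSTo6 (MSTRG.7962) is a glutathione transferase of the omega class by its name. Glutathione transferases join glutathione to small molecules or use it to reduce them, and in Drosophila the omega-class enzyme sepia takes part in making red eye pigments. HmelGSTo6 was at 35.7, 36.0, 33.2 and 37.3 CPM in cythera and at 18.8, 15.9 and 17.5 CPM in rosina. The means of 35.6 ± 1.71 (SD, n = 4) and 17.4 ± 1.42 CPM (SD, n = 3) differed by 2.05-fold, with a log2 fold change of 1.04 (0.12, FDR = 0.0348). It was the smallest change among the DE genes, and it passed the threshold in 0 of the 7 fits with an individual left out (FDR = 0.0612 to 0.085). Individual 13, at 22.7 CPM, lay between the groups and nearer to rosina.

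No other omega-class member was DE. HmelGSTo1, whose locus number follows that of HmelGSTo6, was at 47.9 ± 7.11 CPM in cythera and 42.9 ± 5.81 CPM in rosina (log2 fold change 0.17, SE 0.16). HmelGSTo5, the next in number, was at 28.5 ± 13.3 and 36.8 ± 7.2 CPM (log2 fold change -0.36, SE 0.44). Over the 7 omega-class genes tested the median was -0.17, with 1 gene called higher. Of all 33 rows named as glutathione transferases 21 passed the filter on low counts, 1 was higher and 0 were lower in cythera, and their median log2 fold change was 0.025. These proteins resemble each other, so reads shared between family members may be split between them.

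Other genes with names gave no calls by edgeR. UDP-glycosyltransferases, which attach sugars to small lipophilic molecules, had 51 rows, of which 14 were tested and 0 were DE. At an unadjusted p under 0.05, 2 were higher and 1 lower, against 909 and 734 of the 12907 genes tested. Fitted values were above 0 for 11 of the 14, and the 3 are named here after their values were seen. HmelUGT40V1 was at 0.833, 0.442, 0.257 and 0.729 CPM in cythera and had no counts in rosina (FDR = 0.102). HmelUGT46E1 was at 1.82, 1.87, 3.05 and 0 CPM in cythera and also had no counts in rosina (FDR = 0.229). Both were thus weak, and cythera 12 lacked the second. The one lower was HmelUGT40Z2, at 1.70, 0.933, 2.87 and 16.1 CPM in cythera against 105.4, 50.1 and 56.2 CPM in rosina (FDR = 0.153). Its groups did not overlap, but the 4 cythera libraries spread from 0.933 to 16.1 CPM. Of the chemosensory receptors, 3 of 73 rows named Gr and 4 of 31 rows named IR were tested, with 0 DE genes in either list and 0 at an unadjusted p under 0.05. All 4 IR genes had fitted values below 0, and the largest of them in level, HmIR25a_1, was at 128 ± 29 CPM in cythera and 156 ± 15.4 CPM in rosina (FDR = 0.641).

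The annotated genes MSTRG.5329, MSTRG.9782, MSTRG.19723 and, with under 10 counts in some rosina libraries, MSTRG.20650 were also higher in cythera. MSTRG.5329 (HMEL008925g1) was at 27.8, 30.4, 29.9 and 23.0 CPM against 4.29, 8.07 and 7.47 CPM, a log2 fold change of 2.08 (0.25, FDR = 0.0398). MSTRG.9782 (HMEL030385g1) was at 12.2, 8.05, 10.5 and 12.6 CPM against 2.36, 3.38 and 2.41 CPM, a log2 fold change of 2.00 (0.24, FDR = 0.0398). The lowest cythera value of each was above the highest rosina value by more than the range within either group.

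MSTRG.20650 (HMEL034206g1) was at 5.60, 8.39, 6.29 and 2.04 CPM against 0.337, 0.358 and 0.314 CPM, a log2 fold change of 4.04 (0.55, FDR = 0.0449). MSTRG.19723, a locus that joins HMEL005164g1 and HMEL033883g1, was at 10.6, 12.1, 5.15 and 12.5 CPM against 1.43, 1.17 and 1.54 CPM, a log2 fold change of 2.87 (0.36, FDR = 0.0398). Rosina was the tighter group in both genes.

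The remaining 3 loci that were higher in cythera carry no annotated ID. MSTRG.6834 was at 8.37 to 9.37 CPM in cythera and 0.455 to 1.39 CPM in rosina. MSTRG.9424 was at 5.94 to 9.56 CPM in cythera and 0.683 to 1.47 CPM in rosina, and here individual 13 had the rosina level, 0.715 CPM. MSTRG.21762, again with under 10 counts in some rosina libraries, was at 2.42 to 5.45 CPM in cythera and 0.174 to 0.358 CPM in rosina, with 8.57 CPM in individual 13. Log2 fold changes of the 3 loci were 3.19 (0.39), 2.90 (0.35) and 3.71 (0.48), with FDR values of 0.0398, 0.0398 and 0.0426.

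Lower in cythera, besides the loci read only in rosina, were MSTRG.11303, MSTRG.16552, MSTRG.18410 and, with under 10 counts in most cythera libraries, MSTRG.6818. MSTRG.11303 was at 3.22, 3.14, 3.57 and 3.87 CPM in cythera and at 18.9, 23.3 and 15.0 CPM in rosina, 5.53-fold apart in their means (log2 fold change -2.46, SE 0.19, FDR = 0.00466). MSTRG.16552 (HMEL032372g1), the one with an annotated ID, was at 5.45, 5.84, 5.77 and 5.18 CPM against 22.9, 16.0 and 21.5 CPM (log2 fold change -1.85, SE 0.17, FDR = 0.00867). Cythera was even in both genes, and rosina was more spread.

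MSTRG.18410 was at 1.67, 3.34, 3.35 and 3.68 CPM in cythera against 16.3, 28.9 and 15.5 CPM in rosina (log2 fold change -2.74, SE 0.34, FDR = 0.0398). MSTRG.6818 was at 0.146 to 0.515 CPM in cythera against 4.21, 11.4 and 5.86 CPM in rosina (log2 fold change -4.56, SE 0.56, FDR = 0.0398). Individual 13 had 3.20 CPM of MSTRG.18410, within the cythera range, and 2.75 CPM of MSTRG.11303, below every cythera library. Of MSTRG.6818 it had 3.95 CPM, close to the lowest rosina library.

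**Figure D3:**
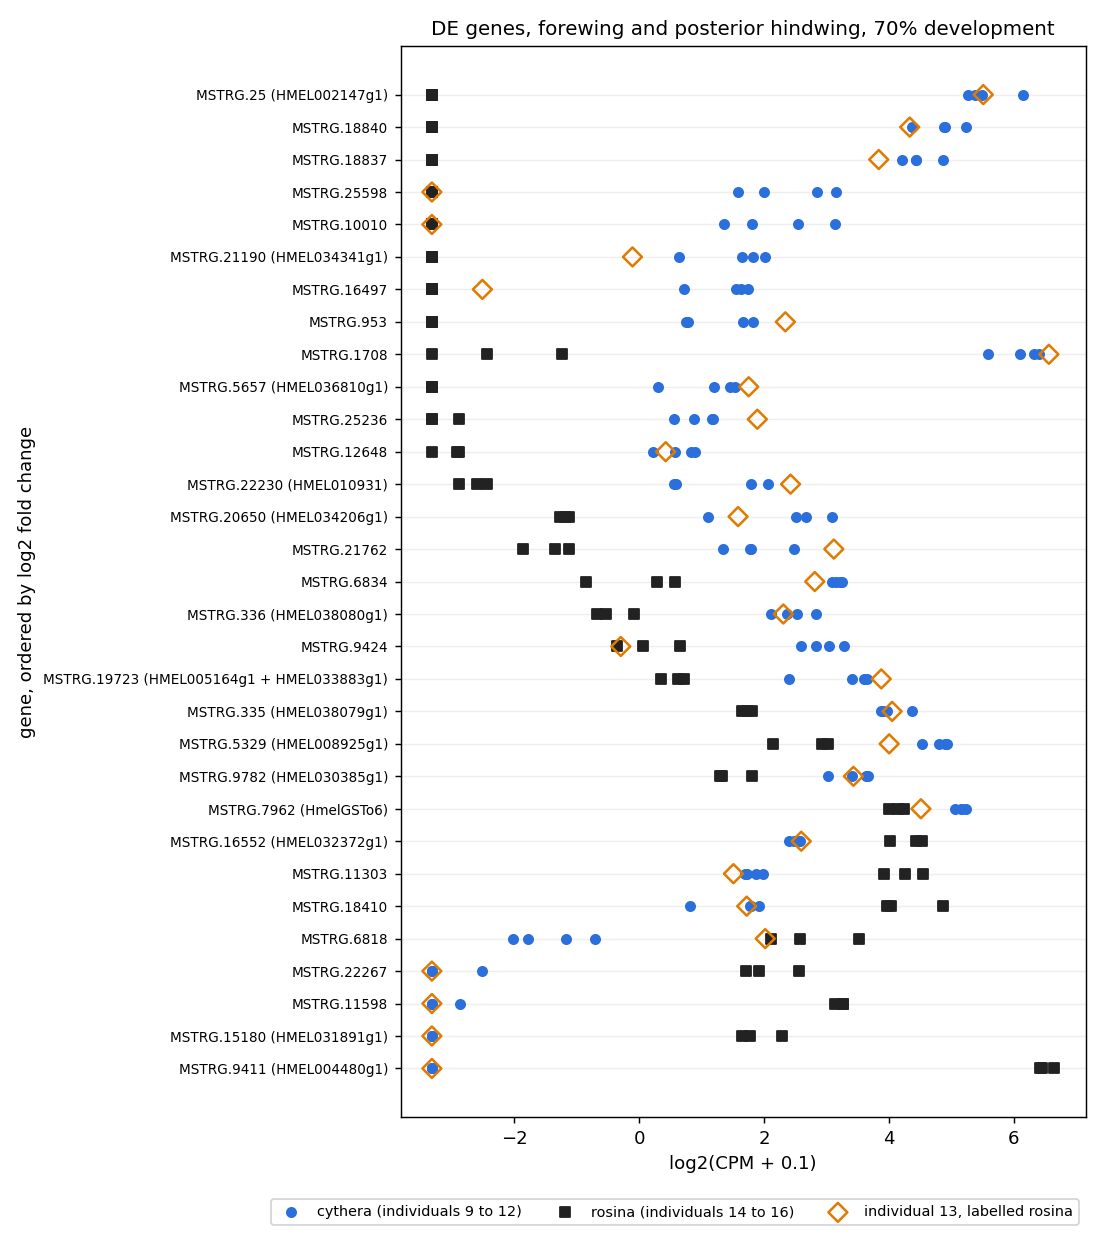
Level of each of the 31 DE genes (rows, ordered by log2 fold change) in every library of the forewing and posterior hindwing at 70%, as log2(CPM + 0.1) on the horizontal axis. Cythera (blue circles) and rosina (black squares) do not overlap in any row, and individual 13 (orange diamonds) is nearer to cythera in 25 rows and nearer to rosina in 6.

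Over the 31 DE genes individual 13 lay nearer to the cythera mean in 25 and nearer to the rosina mean in 6. It was inside the range of the cythera libraries in 11, inside the range of the rosina libraries in 3 and in neither in 17. The genes themselves were chosen on the other 7 libraries. Over all 1669 genes whose groups did not overlap, individual 13 was nearer to cythera in 1160 and nearer to rosina in 509.

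Several annotated genes lay just outside the threshold. The first 3 named here had higher levels than most DE genes and smaller changes than all of them. MSTRG.13618 (HMEL009623g1) was at 58.4, 55.5, 57.5 and 54.4 CPM in cythera against 91.04, 91.7 and 97.4 CPM in rosina (log2 fold change -0.72, SE 0.10, FDR = 0.0536). MSTRG.5681 (HMEL021525g3) was at 25.2 to 31.2 CPM against 48.6 to 66.6 CPM, and MSTRG.24616 (HMEL011458g2) at 24.9 to 31.8 against 47.6 to 56.8 CPM, both with the same FDR. The groups of the 3 genes did not overlap.

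MSTRG.24281 (joining HMEL035264g1 and HMEL035265g1) was at 0.344 to 1.25 CPM in cythera and 4.92 to 17.9 CPM in rosina, again with that FDR. In the other direction, MSTRG.21826 (HMEL034491g1) was at 10.3 to 22.3 CPM in cythera against 3.07 to 3.61 CPM in rosina. MSTRG.14267 (HMEL031592g1) was at 7.48 to 9.42 against 1.78 to 3.16 CPM. MSTRG.23964 (HMEL012106g1) was at 7.46 to 10.6 against 3.71 to 4.00 CPM. The last 3 genes had an FDR of 0.0541. So did MSTRG.18628 (HMEL022521), at 0.933 to 1.55 CPM in cythera and without counts in rosina 14 to 16.

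MSTRG.3173, an assembled locus that the study names, had 90.1 and 126 CPM in rosina 14 and 15 but 1.60 CPM in rosina 16. The 4 cythera libraries held 3 counts together, and individual 13 had 0.113 CPM. The ratio of counts pooled over each group, scaled to library size, was 2466 (95% counting interval 844 to 11960). Rosina was widely spread, and the FDR at 70% was 0.0553. At 50% the rosina animals were spread as widely, from 0.537 to 317 CPM, with at most 0.179 CPM in cythera. It was nevertheless DE at that stage (log2 fold change -11.52, SE 2.18, FDR = 0.0431). The paper also names it as DE at 50%, within an interval mapped for blue colour.

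The same question was asked of males alone, because rosina had no females at this stage. In cythera males 9 and 11 against rosina 14 to 16, 1 of 13573 genes (0.00737%) was DE, and this was MSTRG.9411 (FDR = 0.0165). All 31 DE genes of the full comparison kept their direction, with FDR values of 0.0165 to 0.225, and their log2 fold changes moved by a median of 0.11 and by at most 1.67. With 2 cythera libraries in place of 4, fewer libraries stood behind each value. The ratio of cythera females to cythera males in the 31 genes ran from -0.69 to 0.64 on the scale of log2(CPM + 0.1). This range was limited by the choice of genes, since the spread among the cythera animals, males and females together, was the error of the test that called them.

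With sex as a term in the model of all 7 libraries, 10 genes (0.0775%) were DE between the subspecies, 6 higher and 4 lower in cythera. Of the 31 genes above, 7 were among them, namely MSTRG.9411, MSTRG.18837, MSTRG.335, MSTRG.18840, MSTRG.1708, MSTRG.11598 and MSTRG.25. The term for sex itself, which rests on the cythera animals, gave 0 DE genes by edgeR, with 490 (3.8%) at an unadjusted p under 0.05.

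**Figure D4:**
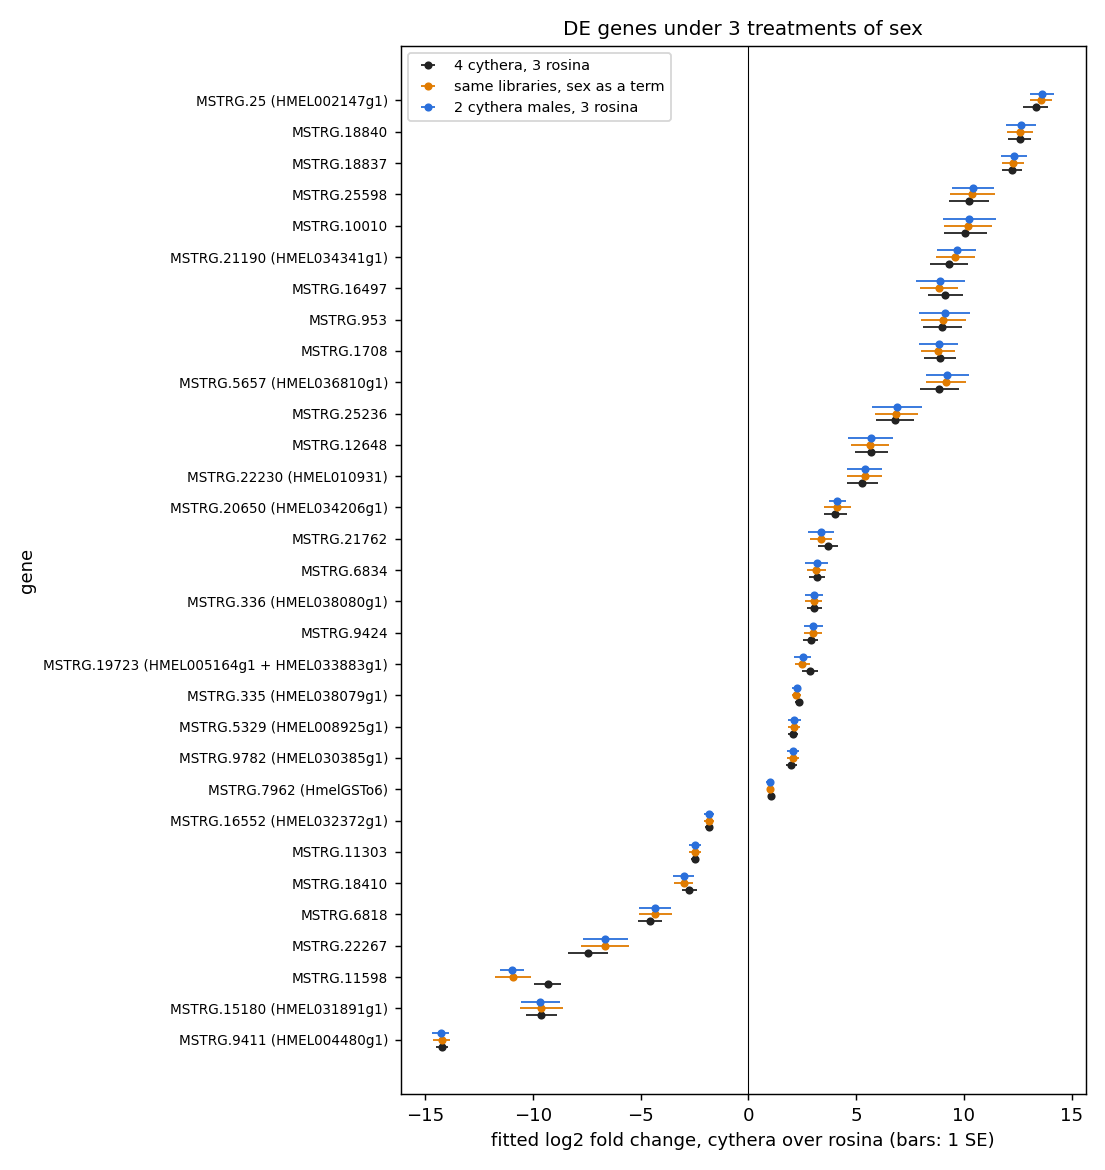
Fitted log2 fold changes of cythera over rosina (horizontal axis) for the 31 DE genes (rows) in all 7 libraries (black), with sex as a term (orange) and in males alone (blue). Bars are 1 SE as derived from the F of the test, and do not measure precision where a group had no counts. The 3 values of a gene lie on the same side of 0 in every row, as they must, because the groups do not overlap in the 7 libraries. The largest shift in males alone is 1.67, in the locus MSTRG.11598.

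The other 3 genes DE with the sex term split the cythera animals. MSTRG.1997 (HMEL033128g1) had no counts in cythera males 9 and 11, and stood at 6.23 and 6.46 CPM in females 10 and 12 and at 12.3, 9.11 and 17.6 CPM in the rosina males (FDR = 0.0245 with the term and 0.656 without it). MSTRG.4849 (HMEL036576g1) was at 0.0757 and 0.0368 CPM in the cythera males, 6.58 and 5.29 CPM in the females and 2.52, 5.14 and 3.70 CPM in the rosina males (FDR = 0.0472 and 0.958). In both genes the cythera males were near 0, as was individual 13, at 0 and 0.226 CPM, and the females were well above them.

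The split by sex in MSTRG.4849 was not seen at 50%, where cythera female 1 and male 2 were at 0.0223 and 0.0250 CPM and female 3 and male 4 at 9.36 and 4.12 CPM. MSTRG.2789, an assembled locus, was at 4.35 and 10.8 CPM in cythera males and 2.45 and 1.82 CPM in females, against 0.0698 to 0.130 CPM in rosina (FDR = 0.041 with the term and 0.0541 without it). Its difference from rosina thus had the same direction in both sexes of cythera.

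The anterior hindwing carries another type of scale, and was dissected from the same animals, so it is not independent of the comparison above. There 50 of 13087 genes (0.382%) were DE between the subspecies without individual 13. All 31 genes were tested, 18 were DE and all 31 had the same direction. The groups did not overlap in 29 of the 31, against 1714 of the 12907 genes (13.3%). The exceptions were MSTRG.16552, with 14.3 CPM in cythera 11 and 5.87 CPM in rosina 15, and MSTRG.20650, with 0.0345 CPM in cythera 12.

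Whether the subspecies difference itself depended on the wing region was tested with the individual as a block. By edgeR 0 of 15224 genes (0%) were DE for this interaction, with 654 at an unadjusted p under 0.05 and a smallest FDR of 0.2, and DESeq2 called 15. For 7 of the 31 genes, MSTRG.9411, MSTRG.18840, MSTRG.16497, MSTRG.25598, MSTRG.15180, MSTRG.10010 and MSTRG.953, the interaction could not be estimated, because 1 subspecies had no counts in either region. Among the other 24 the lowest FDR was 0.939, in MSTRG.19723, and 7 had an unadjusted p under 0.05. Of these 7, MSTRG.18837, MSTRG.25, MSTRG.21190 and MSTRG.5657 had no counts in the forewing and posterior hindwing of rosina. The size of their fitted interactions therefore depends on the prior count that edgeR adds. MSTRG.9411 was at 78.6 ± 3.93 CPM in the anterior hindwing of rosina (SD, n = 3) and at 91.2 ± 7.98 CPM in the forewing and posterior hindwing. MSTRG.1708 was at 69.9 ± 16.6 and 70.2 ± 16.2 CPM in the same regions of cythera (SD, n = 4). MSTRG.15180 was at 3.71 ± 0.94 CPM in the forewing and posterior hindwing of rosina and at 0.864 ± 0.282 CPM in the anterior hindwing (SD, n = 3), with no counts in either region of cythera. The subspecies without counts was thus the same in both regions for MSTRG.9411 and MSTRG.15180, and the level of MSTRG.15180 in rosina was lower in the anterior hindwing, without overlap.

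Other animals were available at 50%, 4 of each subspecies in the same wing region. At that stage 210 of 12779 genes (1.64%) were DE, and 1635 had an unadjusted p under 0.05. Of the 31 genes, 25 passed the filter on low counts at 50%, all 25 had the same direction, 16 had an unadjusted p under 0.05 and 7 were DE. The 7 were MSTRG.9411, MSTRG.25, MSTRG.11303, MSTRG.1708, MSTRG.9424, MSTRG.16497 and MSTRG.21190. Without a filter, the subspecies did not overlap in 16 of the 31 at 50%, in the same direction as at 70% each time, against 1085 of the 12907 genes (8.41%).

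MSTRG.9411 and MSTRG.25 were split by subspecies at both stages. At 50% MSTRG.9411 was at 162, 38.9, 164 and 199 CPM in rosina 5 to 8, with no counts in cythera 1 to 4. MSTRG.25 was at 89.6, 102, 87.5 and 67.5 CPM in cythera and without counts in rosina in this wing region. In the anterior hindwing MSTRG.25 had 18 and 43 counts in rosina 7 and 8 at 50%, and 0 in rosina 5 and 6. At 70% it had 8 counts there in rosina 16 and 0 in rosina 14 and 15. MSTRG.1708 was at 13.1, 10.1, 7.48 and 1.46 CPM in cythera at 50%, below every cythera library at 70%, and at most 0.0805 CPM in rosina.

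Others of the 31 overlapped between the subspecies at 50%. MSTRG.18837 and MSTRG.18840 reached 2.89 and 3.67 CPM in cythera at 50%, and up to 1.45 and 0.564 CPM in rosina, where neither had any counts at 70%. MSTRG.335 was at 15.6, 16.9, 4.99 and 15.0 CPM in cythera and 10.9, 3.57, 3.84 and 10.1 CPM in rosina. Cythera 3 was thus below rosina 5 and 8 in MSTRG.335 at 50%, an overlap not found at 70%.

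HmelGSTo6 was at 24.3, 25.9, 15.5 and 18.0 CPM in cythera and 11.9, 20.03, 9.92 and 9.42 CPM in rosina at 50%, so the groups overlapped (FDR = 0.354). MSTRG.19723 was at 13.8 to 164 CPM in cythera and 30.1 to 113 CPM in rosina, and all 7 libraries at 70% were below the lowest of these. MSTRG.5329 was at 2.15 to 3.55 CPM in cythera and 0.105 to 0.737 CPM in rosina, lower at 50% than at 70% in both subspecies without overlap between them (FDR = 0.0918). MSTRG.15180 was absent at 50% apart from 0.105 CPM in rosina 7.

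**Figure D5:**
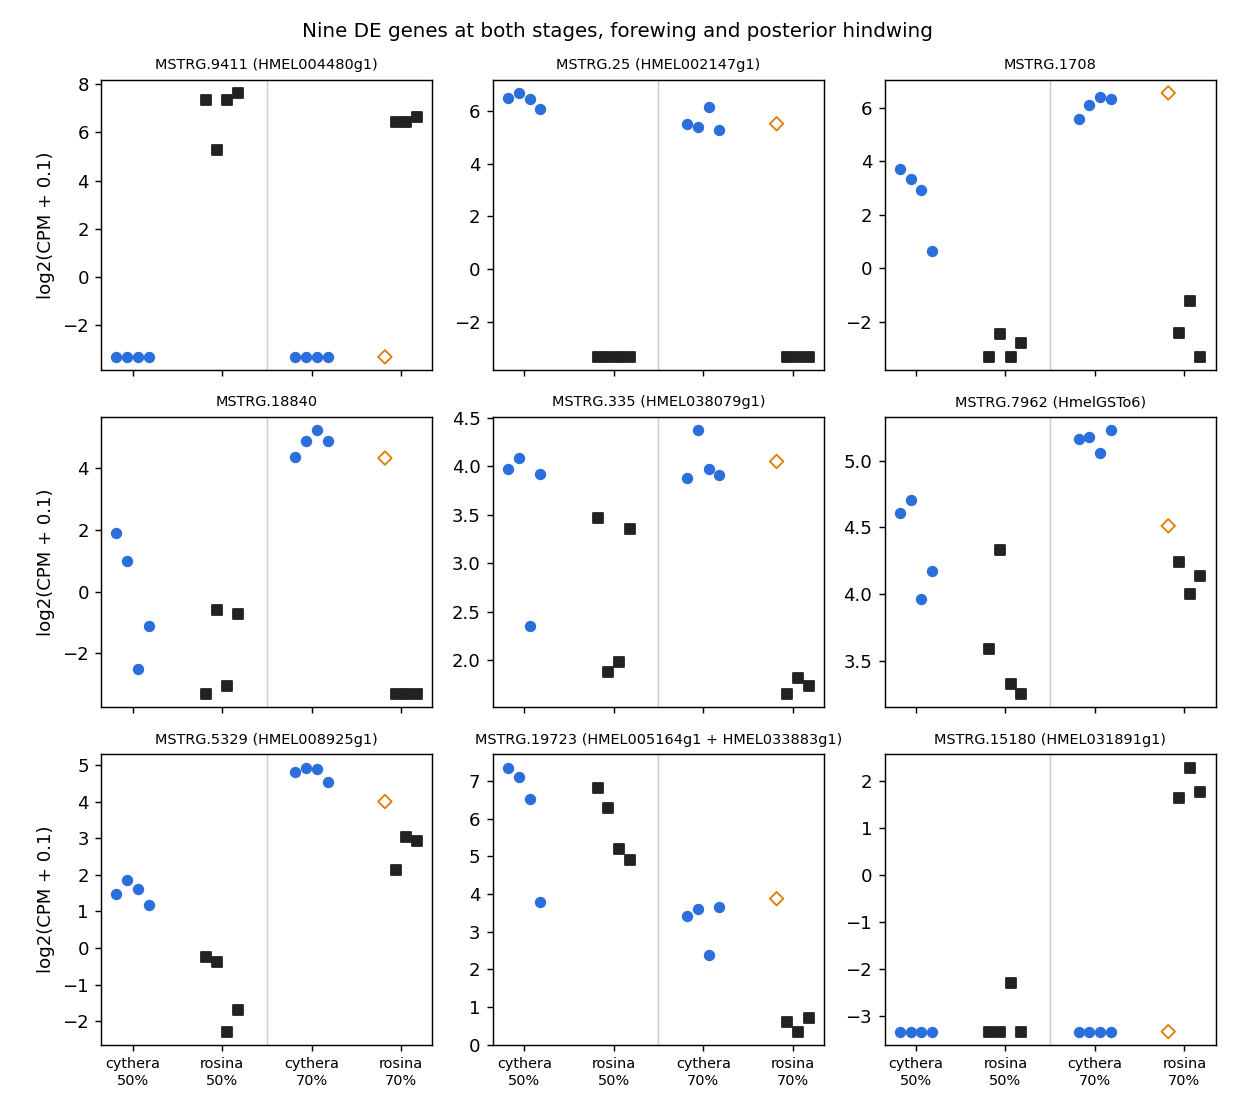
Level of 9 of the DE genes, as log2(CPM + 0.1), in each library of the forewing and posterior hindwing, by subspecies (blue circles cythera, black squares rosina) and stage (50% left and 70% right of the grey line). The orange diamond is individual 13, labelled rosina. MSTRG.9411 and MSTRG.25 are split by subspecies at both stages, whereas MSTRG.18840, MSTRG.335, HmelGSTo6 and MSTRG.19723 overlap at 50%.

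The change of the subspecies difference from 50% to 70% was tested as an interaction, and 1 of 15892 genes (0.00629%) passed. MSTRG.18628 (HMEL022521) was at 0.974 to 1.91 CPM in cythera and 0.832 to 1.83 CPM in rosina at 50%. At 70% it was at 1.55, 0.933, 0.993 and 1.02 CPM in cythera and had no counts in rosina 14 to 16, at least a 10.3-fold difference, while individual 13 had 0.639 CPM. The interaction had an FDR of 0.0163, although the difference at 70% alone had an FDR of 0.0541. No gene passed this test without the filter on low counts, nor without cythera 1 or rosina 5, 7 or 15. In the anterior hindwing rosina 14 had 0.218 CPM of the gene, rosina 15 none and rosina 16 0.0246 CPM. For 6 of the 31 DE genes, MSTRG.9411, MSTRG.25, MSTRG.25598, MSTRG.15180, MSTRG.10010 and MSTRG.953, this interaction could not be estimated, because 1 subspecies had no counts at either stage. Of the other 25, 0 passed in edgeR (lowest FDR 0.482) and 8 had an unadjusted p under 0.05, as did 1018 of the 15892 genes. Among these 8, MSTRG.18837, MSTRG.18840, MSTRG.21190 and MSTRG.5657 had no counts in rosina at 70%. The size of their fitted interactions therefore depends on the prior count.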

How the data were processed

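RNA was sequenced from pupal wings with a stranded mRNA kit. The authors trimmed and aligned the reads to the H. melpomene genome, and the deposited table holds unscaled whole-number counts for 30720 genes or assembled loci. The submitters' processing notes list Trimmomatic 0.38, HISAT2 2.1.0, SAMtools 1.9, StringTie 1.3.5 and edgeR. MSTRG identifiers have the form of StringTie's merged loci, so counts may be derived from coverage. The genome build, the annotation and the use of strand in counting are not given in the sources used here, and reads of overlapping or near-identical genes may be split between rows. Every row had an identifier, 0 columns were left unused, and 0 rows matched the 15508 genes of RefSeq assembly ASM5695672v1, so no sequences or positions were used.

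The test was edgeR 4.0.16 (R 4.3.3, limma 3.58.1), with filterByExpr at a minimum count of 10, TMM and the quasi-likelihood F-test in the form of earlier versions, at a Benjamini-Hochberg threshold of 0.05. Matplotlib 3.10.9 under Python 3.11.15 drew the plots. Printed CPM are counts over effective library sizes from all 32 libraries. Fold changes against a group without counts are lower bounds at 3 counts per library, and with 1 to 3 counts in a group the ratio has a 95% counting interval.

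Subspecies, region, stage, sex and individual came from the labels. The test of wing region had individual as a block, because libraries with one number come from the same animal, and deviations from the group means correlated at 0.644 to 0.743 in the 7 pairs. Library pairs of 1 label had chi-square values of 73.1 to 254 per degree of freedom, so none repeated another. Alternatives were DESeq2 1.42.0, RLE size factors, other filters and dispersion fits, a sex term, males only, both stages in 1 fit, individual 13 under its label, no block and each individual left out. The fits were tested on simulated data. Genes named were the 14 higher and up to 10 lower DE genes of smallest p, annotated DE genes, the 5 most abundant, those DE with the sex term or the stage interaction only, 4 annotated genes in each direction next to the threshold and the locus the study names. Of the other DE genes, values are given to account for all 31. The libraries, lists and rules were chosen with earlier results of these data known.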

Additional observations from a re-analysis of the deposited data

Results flagged for a closer look

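Values that stood apart within a group of 4 libraries were looked for by Dixon's test in 78 groups, and 27 did. The genes were those named above, most of them chosen because rosina 14 to 16 were close to each other and apart from cythera. The chance share of about 1 in 20 groups therefore does not apply to them. Of the 27, 25 were individual 13 against the other 3 libraries labelled rosina at 70%. In individual 13 there were 0 CPM of MSTRG.9411 and 0 CPM of MSTRG.11598. It had 14.2 CPM of MSTRG.18837, 20.04 CPM of MSTRG.18840, 45.5 CPM of MSTRG.25, 16.5 CPM of MSTRG.335, 94.4 CPM of MSTRG.1708 and 4.85 CPM of MSTRG.336. It had 10.7 CPM of MSTRG.9782, 6.92 CPM of MSTRG.6834, 14.6 CPM of MSTRG.19723, 0.827 CPM of MSTRG.21190, 8.57 CPM of MSTRG.21762 and 3.61 CPM of MSTRG.25236. It had 4.96 CPM of MSTRG.953, 5.27 CPM of MSTRG.22230, 3.27 CPM of MSTRG.5657, 2.90 CPM of MSTRG.20650 and 1.24 CPM of MSTRG.12648. Outside the DE genes it had 59.1 CPM of MSTRG.13618, 14.2 CPM of MSTRG.21826, 20.9 CPM of MSTRG.14267, 0.639 CPM of MSTRG.18628, 2.75 CPM of MSTRG.2789 and 11.1 CPM of MSTRG.23964. In every one of these 25 the value was outside the range of rosina 14, 15 and 16, as any value flagged by this test must be.

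Within cythera, individual 10 stood apart in MSTRG.335 (20.6 CPM) and individual 9 in MSTRG.18628 (1.55 CPM). Individual 13 entered none of the main comparisons, and 59.6% of the loci read only in cythera were read in it. The subspecies difference of MSTRG.18628 changed by 8.02 on the log2 scale from 50% to 70% in the test of the interaction (FDR = 0.0163), a fitted value that depends on the prior count because rosina at 70% had no counts. Causes of these values were not tested.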

How the results depend on the processing

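The number of DE genes at 70% (31) was 799 by DESeq2, 207 in edgeR's newer quasi-likelihood fit, 74 with both stages in 1 fit, 11 with at least 10 counts in every library, 10 with sex as a term, 1 in males only and 0 with individual 13 under its label. It was 11 to 25 with 1 individual left out, namely 12, 19, 11 and 15 without cythera 9, 10, 11 and 12, and 16, 22 and 25 without rosina 14, 15 and 16. The 23 higher and 8 lower genes became 103 and 104 in the newer fit. All 31 were DE by DESeq2 and in the newer fit. When an individual was left out, 8 were DE in all 7 such fits and 15 in none. Their direction could not change in those fits, because the groups did not overlap in the libraries that called them. With individual 13 under its label, the 4 loci read only in rosina failed the filter on low counts and were not tested. Of the other 27 genes, 0 passed the threshold and 27 kept their direction. For the interaction with wing region (0 genes), DESeq2 gave 15, no filter 5, leaving out 1 individual 0 to 2, and the fit without the replicate block, which ignores the pairing, 0. For the interaction with stage (1 gene) DESeq2 gave 133, no filter 0, individual 13 under its label 0, the sex term 2 and leaving out 1 individual 0 to 7 (7 without rosina 16). The 210 genes at 50% became 778 by DESeq2, 122 without a filter and 19 (without rosina 8) to 317 (without cythera 4) with 1 individual left out. The 50 in the anterior hindwing became 867 by DESeq2, 0 with individual 13, 7 with the sex term and 9 (without cythera 12) to 30 (without rosina 16) with 1 individual left out. The log2 fold change of MSTRG.4849 turned positive with individual 13 (0.056), without cythera 9 (0.079) and without cythera 11 (0.086), and was -1.07 without cythera 10. Where a group had a few counts in 1 library, leaving that library out moved the fitted log2 fold change, to -10.91 for MSTRG.11598 without cythera 12, -9.79 for MSTRG.22267 without cythera 11, 8.59 for MSTRG.25236 without rosina 16 and 10.65 for MSTRG.1708 without rosina 15. With 0 counts required in the silent subspecies, an alternative chosen after seeing the data, 30 loci in place of 57 were read only in cythera and 31 in place of 65 only in rosina. Causes of these changes were not tested. Depth limits genes near 0.1 CPM, and 3 rosina animals, all males, limit the rest.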

Other observations

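Several of the DE loci without an annotated ID had levels that moved together from animal to animal. MSTRG.25598 and MSTRG.10010 were at 10.4 and 10.9 CPM in cythera 4 at 50%, where the other 3 cythera animals had 0.645 to 0.849 and 0.378 to 0.699 CPM, and neither had a count in any rosina library of this wing region at either stage. MSTRG.953 and MSTRG.25236 were at 26.01 and 20.6 CPM in cythera 1 and 18.8 and 16.2 CPM in cythera 2, and neither had a count in cythera 3. Individuals of 1 subspecies also differed at 50% in some of the DE loci. MSTRG.11598 was at 6.63 and 6.38 CPM in rosina 5 and 7 and at 0.107 and 0 CPM in rosina 6 and 8. MSTRG.16552 was at 17.6 and 16.1 CPM in rosina 6 and 7 and at 5.38 and 4.79 CPM in rosina 5 and 8, the last pair close to the 3.74 to 4.15 CPM of cythera.

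Among the glutathione transferases, HmelGSTe2 was uneven in cythera, at 78.2 CPM in individual 11 and 1.77 to 6.36 CPM in the other 3, against 97.4 to 119 CPM in rosina and 84.5 CPM in individual 13. Its groups did not overlap, but it was not DE (FDR = 0.487). This gene was picked after its values were seen.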
